A study of Mus musculus with 4 samples.

Results

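Amino acids enter and leave cells, and move between the cytosol and lysosomes, through carriers of several solute carrier (Slc) families. All genes of the Slc1, Slc3, Slc6, Slc7, Slc36, Slc38 and Slc43 families whose symbol ends in a plain member number were taken from a table of 34745 genes, which gave 60 genes: 7 of Slc1, 2 of Slc3, 18 of Slc6, 15 of Slc7, 4 of Slc36, 11 of Slc38 and 3 of Slc43. The rule used names and no measured value. The families also hold carriers of other substrates, such as creatine, taurine, monoamines and purine bases, so the 60 genes are not all amino acid carriers.

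RNA had been sequenced from CD4+ T cells of spleens of wild type C57BL/6 mice. The series holds 4 libraries, 1 per group. The naive library was made from cells taken straight from the spleen, and the Th0 library from cells stimulated through CD3 and CD28 for 3 days. The Th17 and Treg libraries came from cells kept for 3 days in Th17 or Treg differentiation conditions, whose cytokines, culture medium and stimulation the labels do not give, so the supply of amino acids in each culture is not known either. With 1 library per group no difference below has a replicate check, and no test between conditions was possible. Each interval is a 95% counting interval (exact Poisson for a level, exact Clopper-Pearson for a ratio) and covers counting error in that library or pair of libraries only.

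Levels are given as CPM, counts relative to a library size scaled with TMM factors, and are compared between libraries for 1 gene at a time. Levels of different genes are compared only as the authors' FPKM, which also divides by gene length. Higher and lower are calls by size: a 2-fold or larger ratio of CPM values with 1 CPM added, and a counting interval that excluded equality. Genes short of 10 counts in both libraries of a pair were left out. Folds are given without the added CPM. Where a library had 0 counts, the fold was taken against 3 counts in that library and is a lower bound. Total counts were between 10256627 and 12414372, and 3 counts were worth 0.229 to 0.343 CPM.

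The T cell markers Cd3e, Cd3g, Cd4 and Lck were present in every library and summed to between 1947 and 2390 CPM. Il17a stood at 90.4 CPM in Th17 and 14.7 in Treg, with 0 counts in Th0 and 3 in naive. Foxp3 was higher in the naive library (129 CPM) than in the Treg library (51.5 CPM). Transcripts of most other spleen cells were higher in naive than in the cultures. The 8 macrophage and monocyte markers, all detected everywhere, had a summed level of 3821 CPM in naive and 31.3 to 44.8 in the cultures. For the 6 B cell markers, also all detected, the sum was 3468 CPM against 99.6 to 436. Neutrophil genes came to 1435 CPM against 1.26 to 4.42, dendritic cell genes to 295 against 1.60 to 20.6, and stromal and endothelial genes to 175 against 45.6 to 60.9. Genes of CD8 T and NK cells gave 98.8 CPM in naive and 47.2 to 103 in the cultures. No marker was at 0 in naive. In the cultures, Siglech and Cd209a of dendritic cells were at 0 in all 3, and 1 or more of Xcr1, S100a8, Camp, Ltf, Mpo, Ncr1, Klrb1c, Pdgfrb and Cdh5 were at 0 in each. In bulk RNA, fewer cells of a type and less RNA per cell cannot be told apart.

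T cells that leave quiescence grow before they divide and take up large amounts of amino acids. LAT1, a pair of the light chain Slc7a5 and the heavy chain Slc3a2 (CD98), brings in leucine and other large neutral amino acids in exchange for glutamine. ASCT2 (Slc1a5) exchanges small neutral amino acids including glutamine, and the SNAT carriers Slc38a1 and Slc38a2 take up glutamine and alanine with sodium. Amino acids inside the cell are sensed by mTORC1 at the lysosome, and their lack is sensed through the kinase GCN2 and the transcription factor ATF4, several of whose known target genes encode carriers.

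The 250 bases before the start site are shown for 4 members, as RefSeq annotates them on GRCm38.p6, because they show the letters that were searched for in the family. A pair of motifs was looked for on both strands. TGATGNAA is the core of the element bound by ATF4 and C/EBP proteins, and CACGTG is the E-box bound by Myc, Max and the lysosomal regulator TFEB, and it reads the same on both strands. Slc7a11, the cystine and glutamate exchanger, held 2 matches of the first motif, and Slc36a1 and Slc38a7, carriers of the lysosomal membrane, each held 1 E-box. Slc1a4, the member furthest above naive in the Th17 and Treg libraries, held no match of either. Capitals mark the matches.
Slc7a11, chr3:50443614-50443863, minus strand: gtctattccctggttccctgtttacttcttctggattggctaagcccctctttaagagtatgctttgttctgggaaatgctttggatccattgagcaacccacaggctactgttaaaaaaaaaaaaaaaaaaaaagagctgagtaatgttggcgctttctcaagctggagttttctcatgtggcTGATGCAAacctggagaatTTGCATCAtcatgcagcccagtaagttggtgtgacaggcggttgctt
Slc36a1, chr11:55204090-55204339, plus strand: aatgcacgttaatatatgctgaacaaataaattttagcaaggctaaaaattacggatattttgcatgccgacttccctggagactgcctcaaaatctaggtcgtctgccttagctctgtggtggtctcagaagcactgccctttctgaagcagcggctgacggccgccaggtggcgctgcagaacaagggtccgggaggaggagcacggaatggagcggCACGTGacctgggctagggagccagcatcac
Slc38a7, chr8:95853492-95853741, minus strand: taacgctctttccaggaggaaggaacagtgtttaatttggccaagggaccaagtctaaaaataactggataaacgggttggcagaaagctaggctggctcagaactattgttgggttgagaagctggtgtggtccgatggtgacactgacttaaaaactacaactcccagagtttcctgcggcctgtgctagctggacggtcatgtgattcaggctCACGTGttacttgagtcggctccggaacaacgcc
Slc1a4, chr11:20332714-20332963, minus strand: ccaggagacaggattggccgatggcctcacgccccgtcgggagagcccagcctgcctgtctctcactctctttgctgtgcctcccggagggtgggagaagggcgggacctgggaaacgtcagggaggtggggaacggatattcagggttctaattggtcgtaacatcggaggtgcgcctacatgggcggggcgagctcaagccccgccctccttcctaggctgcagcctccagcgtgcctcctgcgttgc

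In Slc7a11 the matches began 66 and 47 bases before the start site and lay on opposite strands, as TGATGCAA and TTGCATCA. The E-box began 31 bases before the start site in Slc36a1 and 34 in Slc38a7. RefSeq windows were matched for 42 of the 60 members. TGATGNAA was found in 2 of the 42 (Slc7a11 and Slc7a7, 4.76%) against 3.91% of 27025 genes with windows of the same length. CACGTG was found in 9 of the 42 (21.4%) against 6.86% of those genes. Of those 9 members 5 had no count in any library (Slc1a6, Slc1a7, Slc6a3, Slc6a16 and Slc7a14), and the other 4 were Slc36a1, Slc38a5, Slc38a7 and Slc43a1. A match describes letters only and is not evidence of binding. Slc1a5, Slc6a6, Slc6a8, Slc7a3, Slc7a5, Slc38a1 and Slc43a3 had no window in the table.

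Of the 60 genes, 23 had at least 10 CPM in at least 1 library, 21 had counts but stayed below that (the highest reached 8.48 CPM), and 16 had no count in any library. The 16 at 0 were the glutamate carriers Slc1a6 and Slc1a7, 7 Slc6 genes (among them Slc6a2 and Slc6a3, the carriers of noradrenaline and dopamine), Slc7a9, Slc7a12, Slc7a13, Slc7a14, Slc7a15, Slc36a2 and Slc38a11. For these, 3 counts set the upper limit given above. Among the 23 genes with at least 10 CPM, the naive library had the highest level for 8, Th17 for 10, Th0 for 3 and Treg for 2. Th0 had the lowest level for 12 of the 23 and naive for 7. Some of these ranks lay within counting error. The intervals of the highest and next library overlapped for Slc6a6, Slc38a2 and Slc36a4, among others, and for Slc6a6 and Slc38a2 the order changed with scaling.

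**Figure D1:**
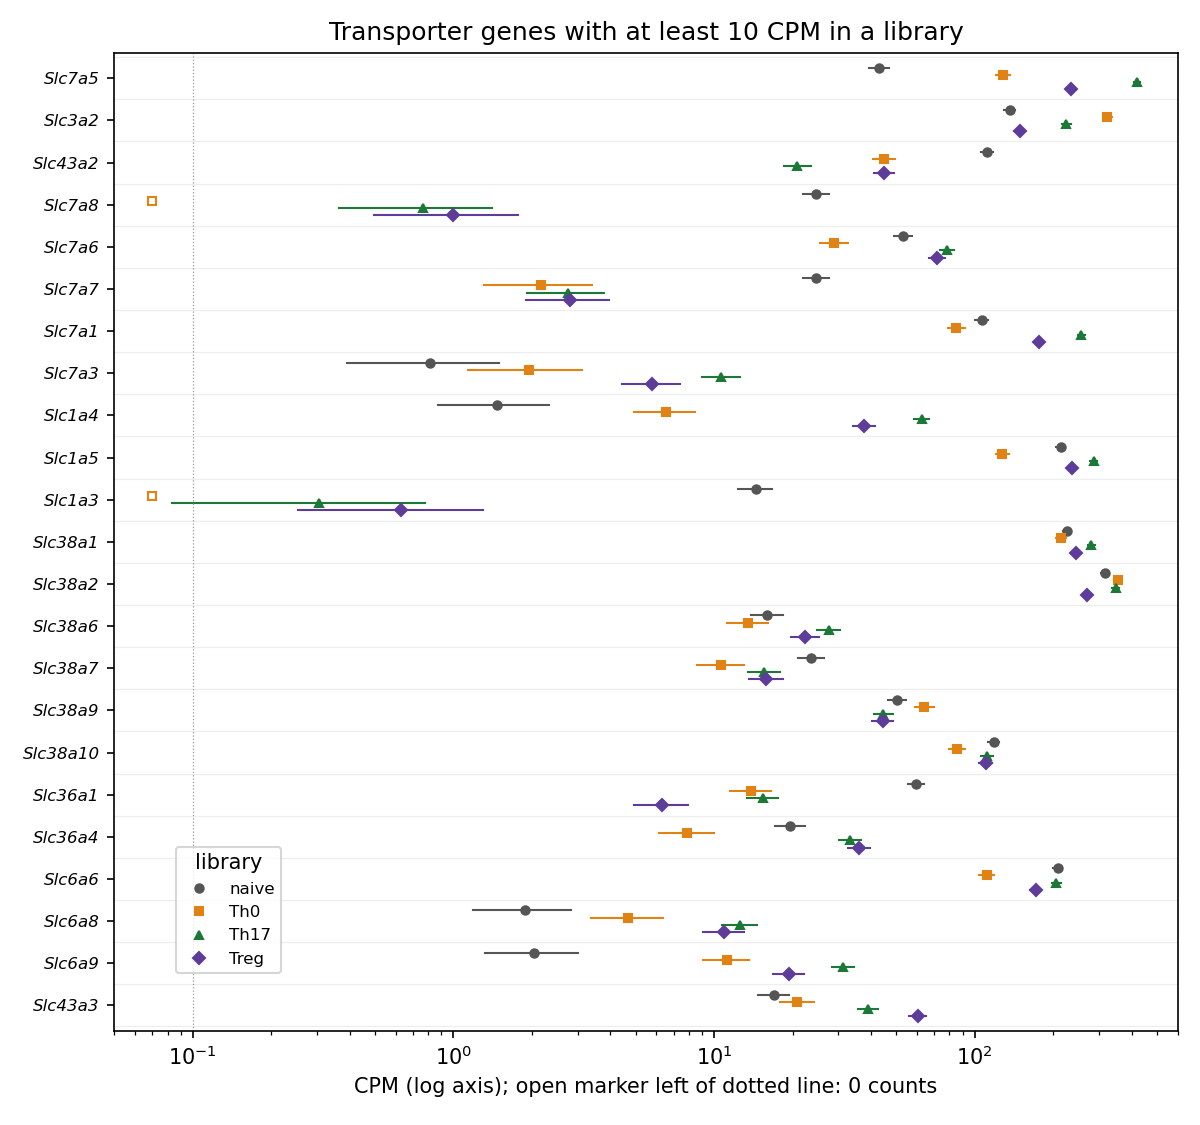
CPM on a log axis of the 23 transporter genes with at least 10 CPM in a library, with 1 marker per library (circle naive, square Th0, triangle Th17, diamond Treg) and lines for the 95% Poisson counting interval. Open squares mark 0 counts in Th0 (Slc7a8 and Slc1a3), and the markers of Slc1a4 spread from 1.47 CPM in naive to 62.6 in Th17 while those of Slc38a2 lie between 269 and 356.

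The carriers of large neutral amino acids differed in direction. Slc7a5 (ENSMUSG00000040010, GRCm38 chromosome 8, 121881150 to 121907694, minus strand), the light chain of LAT1, had 42.96 CPM (naive), 128 (Th0), 419 (Th17) and 235 (Treg). No counting intervals overlapped among these 4 values. It was higher than naive in all 3 cultures, by 2.99-fold in Th0 (2.69 to 3.32), 9.76-fold in Th17 (8.93 to 10.7) and 5.47-fold in Treg (4.98 to 6.01). It was also called 3.27-fold higher in Th17 than in Th0. The Treg ratio to Th0 was 1.83-fold, short of the rule, and that call was met under 2 of 4 scalings.

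Slc3a2 (chromosome 19, 8706882 to 8723369), the heavy chain that carries Slc7a5 and its relatives to the cell surface, had 136 CPM (naive), 323 (Th0), 225 (Th17) and 149 (Treg). Its highest level was thus in Th0, where Slc7a5 was not at its highest. It was called higher in Th0 than in naive (2.37-fold, 2.23 to 2.52, under 3 of 4 scalings) and lower in Treg than in Th0 (2.17-fold, under 2 of 4 scalings). On the FPKM scale Slc7a5 had 0.485 times the level of Slc3a2 in naive and 0.612 times in Th0, but 2.87 times in Th17 and 2.42 times in Treg. These ratios are taken within a library and do not depend on its scaling.

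Slc43a2 (LAT4), which lets large neutral amino acids pass without exchange, had 112 CPM (naive), 45.0 (Th0), 20.9 (Th17) and 44.8 (Treg). Unlike that of Slc7a5, its level was highest in naive and lowest in Th17. Relative to naive it was lower by 2.49-fold in Th0, 5.36-fold in Th17 and 2.50-fold in Treg. Its exons share 922 bases with Gm45606 on the other strand, a gene with no row in the table. Th17 was 2.15-fold below Treg (1.85 to 2.50) under all 4 scalings and 2.15-fold below Th0 under 2 of 4. Slc43a1 (LAT3), a carrier of the same kind, had 6.86 CPM (naive), 2.75 (Th0), 1.07 (Th17) and 1.35 (Treg), and was lower than naive in all 3 cultures. Slc7a8 (LAT2), another partner of Slc3a2, had 24.7 CPM in naive, 0 counts in Th0, and 10 and 11 counts in Th17 and Treg (0.762 and 0.992 CPM). Relative to naive it was lower by 32.4-fold in Th17, by 24.9-fold in Treg and, taken against 3 counts, by 71.8-fold in Th0. For Th0 the lower end of the counting interval was 58.1-fold.

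The other light chains that pair with Slc3a2 differed from each other as well. Slc7a6 (y+LAT2), which exchanges cationic for neutral amino acids, had 53.2 CPM (naive), 28.8 (Th0), 78.3 (Th17) and 71.8 (Treg). Th17 was 2.71-fold and Treg 2.49-fold above Th0. The lower level in Th0 than in naive (1.84-fold) was called under 1 of 4 scalings. Slc7a7 (y+LAT1), which does the same exchange, had 24.7 CPM (naive), 2.17 (Th0), 2.74 (Th17) and 2.80 (Treg). All 3 cultures lay 8.82-fold to 11.3-fold below naive, and their own intervals overlapped. Its exons share 232 bases with Oxa1l on the other strand, which had between 819 and 1359 counts, and strand was not stated, so some of these reads may belong to either gene.

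Slc7a11 (xCT), which brings in cystine for glutathione synthesis, was low in every library, with 45 counts (naive), 2 (Th0), 41 (Th17) and 27 (Treg) (3.67, 0.229, 3.12 and 2.43 CPM). Th0 stood apart below the other 3 libraries. It was 16.1-fold lower in Th0 than in naive (4.19 to 137), and Th17 and Treg were 13.6-fold (3.54 to 116) and 10.6-fold (2.67 to 92.3) above Th0, wide intervals that come from the 2 counts. Slc7a10 (Asc-1), a carrier of small neutral amino acids, had 24 counts in naive and 0 in each culture.

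Among the 6 light chains of Slc3a2 measured here, Slc7a5 made up 27.3% of the summed FPKM in naive, against 78.4%, 81.6% and 72.9% in the Th0, Th17 and Treg libraries. Slc7a6 was the largest part in naive (39.0%) and the second in the 3 cultures (17.6% to 25.7%). Slc7a8 and Slc7a7 held 16.7% and 14.6% in naive and at most 1.24% each in a culture. The summed FPKM of the light chains was 37.6 (naive), 32.3 (Th0), 126 (Th17) and 80.8 (Treg). Slc3a1, the other heavy chain of the family, which pairs with Slc7a9 and Slc7a13 in kidney, had at most 2.45 CPM, and its exons share 601 bases with Prepl on the other strand, which had 256 to 489 counts. Its partners Slc7a9 and Slc7a13 had no count.

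**Figure D2:**
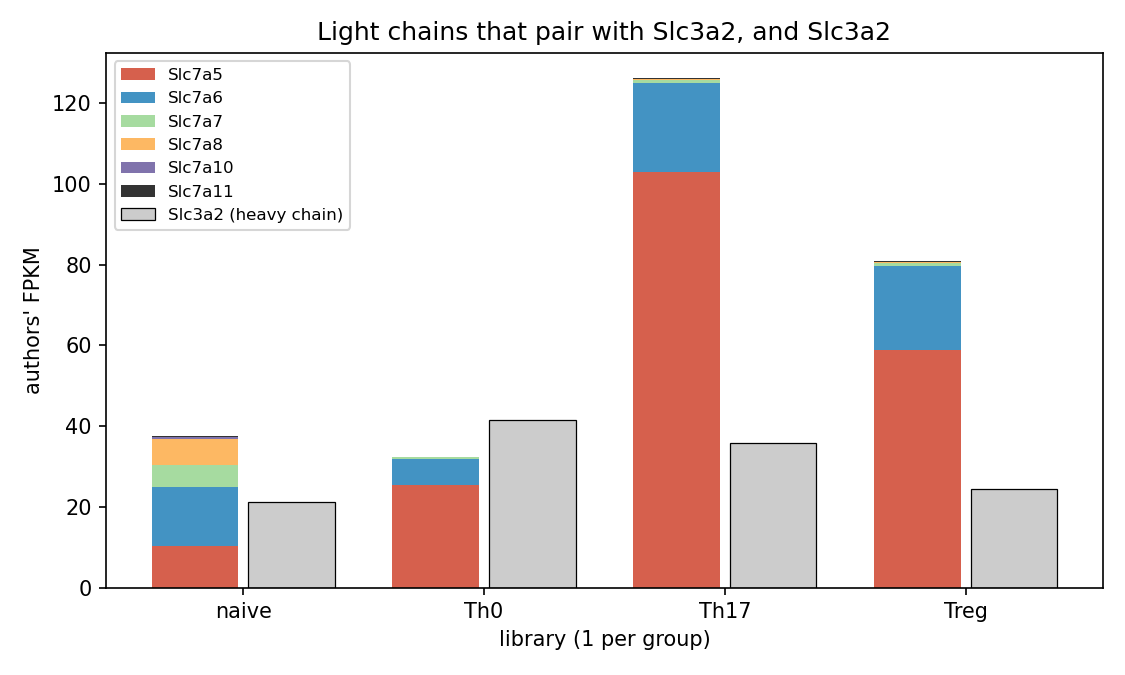
The authors' FPKM of the 6 light chains that pair with Slc3a2, stacked, beside Slc3a2 (grey) in each of the 4 libraries, with no error bars because each group had 1 library. The stack reaches 126 in Th17, of which Slc7a5 is 103, while Slc3a2 is highest in Th0 at 41.4.

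Carriers of cationic amino acids were higher in Th17 and Treg than in Th0. Slc7a1 (CAT1, chromosome 5, 148327410 to 148399904), the main uptake route for arginine and lysine in many cells, had 106 CPM (naive), 85.1 (Th0), 257 (Th17) and 176 (Treg). Th17 was 3.02-fold above Th0 and 2.42-fold above naive, and Treg was 2.07-fold above Th0 under 3 of 4 scalings. Slc7a3 (CAT3) had 0.817 CPM (naive), 1.95 (Th0), 10.7 (Th17) and 5.77 (Treg), and was 13.1-fold (6.90 to 27.8) above naive in Th17 and 7.07-fold (3.60 to 15.4) in Treg. Slc7a2 (CAT2), known for supplying arginine to nitric oxide synthesis in macrophages, had 59 counts (naive), 3 (Th0), 110 (Th17) and 94 (Treg). Its Th17 and Treg levels, 8.38 and 8.48 CPM, were above the naive level of 4.82 CPM by less than the rule. They were 24.4-fold (8.14 to 120) and 24.7-fold (8.19 to 122) above Th0. Slc7a1 held 90.3% to 95.6% of the FPKM of these 3 genes in every library. Slc7a4, placed in this family by sequence, had 0.916 to 2.71 CPM and with TMM scaling was called in none of the 6 comparisons. In Treg over Th0 (2.95-fold, 1.32 to 7.46) it was called higher under the other 2 of 4 scalings.

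The ASCT pair differed in size of change. Slc1a4 (ASCT1, chromosome 11, 20302180 to 20332713), an exchanger of serine, alanine and other small neutral amino acids, had 18 counts in naive (1.47 CPM), 57 in Th0 (6.52 CPM), 821 in Th17 (62.6 CPM) and 418 in Treg (37.7 CPM). It was higher than naive by 4.44-fold in Th0 (2.57 to 8.01), 42.6-fold in Th17 (26.8 to 72.2) and 25.6-fold in Treg (16.0 to 43.7). It was 9.59-fold above Th0 in Th17 and 5.78-fold in Treg. Slc1a5 (ASCT2) had 214 CPM (naive), 128 (Th0), 287 (Th17) and 237 (Treg). Naive and Treg lay within 1.11-fold of each other, Th0 was lowest, and with TMM scaling only Th17 over Th0 was called (2.24-fold, 2.10 to 2.40). Treg over Th0 (1.85-fold) was called under 2 of 4 scalings and the lower level in Th0 than in naive (1.67-fold) under 1. On the FPKM scale Slc1a5 stayed above Slc1a4 in every library, at 43.9 against 9.50 in Th17.

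The glutamate carriers of the same family were seen mainly in naive. Slc1a3 (EAAT1) had 177 counts (naive), 0 (Th0), 4 (Th17) and 7 (Treg). Relative to naive it was lower by 47.4-fold in Th17 (18.2 to 176), by 22.9-fold in Treg (10.9 to 57.8) and, taken against 3 counts, by 42.1-fold in Th0. For Th0 the lower end of the counting interval was 33.9-fold. Slc1a2 had 17 counts in naive and at most 3 in a culture, and Slc1a1 had at most 2 in any library.

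The abundant Slc38 carriers of neutral amino acids varied little. Slc38a2 (SNAT2), which is known to be regulated by amino acid supply, had 316 CPM (naive), 356 (Th0), 348 (Th17) and 269 (Treg). Its largest ratio in the 6 comparisons was 1.32-fold, and the direction of Th0 over naive and of Th17 over Th0 changed between scalings. Slc38a1 (SNAT1) had 226 CPM (naive), 215 (Th0), 281 (Th17) and 245 (Treg), Slc38a10 118, 85.5, 112 and 110.1 CPM, and Slc38a9, the lysosomal arginine sensor of mTORC1, 50.3, 64.0, 44.7 and 44.4 CPM. Slc38a6 had 16.0, 13.5, 27.5 and 22.4 CPM. With TMM scaling none of these 5 genes was called in any comparison, although Slc38a6 was 2.04-fold above Th0 in Th17 before the added CPM. It was called there under the other 2 of 4 scalings, and over Th0 in Treg under 1. Slc38a7 (SNAT7), which exports glutamine from lysosomes, had 23.6 CPM (naive), 10.6 (Th0), 15.5 (Th17) and 15.9 (Treg), and was lower in Th0 than in naive (2.22-fold, 1.75 to 2.83). Slc38a5 (SNAT5) had 33 counts in naive and 0 in each culture, while Slc38a3, Slc38a4 and Slc38a8 had at most 14 counts.

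Per gene length, Slc38a2 was the most abundant of all 60 transcripts in naive (70.4 FPKM), Th0 (65.4) and Treg (62.8). In Th17 Slc7a5 came first at 103 FPKM, followed by Slc38a2 at 79.5. In naive Slc7a5 had ranked 7 among the 60 genes, at 10.3 FPKM. The 3 most abundant members held 48.6% of the summed FPKM of all 60 (naive), 60.97% (Th0), 54.3% (Th17) and 49.4% (Treg).

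Slc36a1 and Slc36a4 of the Slc36 family were both lower in Th0 than in naive and differed in Th17 and Treg. Slc36a1 (PAT1), which moves small amino acids out of lysosomes, had 59.5 CPM (naive), 13.9 (Th0), 15.4 (Th17) and 6.31 (Treg). It was lower than naive in all 3 cultures, by 4.30-fold in Th0, 3.87-fold in Th17 and 9.43-fold in Treg. It was the only member called higher in Th17 than in Treg (2.44-fold, 1.85 to 3.25), under all 4 scalings, and its level in Treg was 2.19-fold below Th0 under 2 of 4. Slc36a4 (PAT4) had 19.6 CPM (naive), 7.90 (Th0), 33.3 (Th17) and 35.98 (Treg). Th0 was lowest, 2.48-fold below naive, and Th17 and Treg were 4.22-fold and 4.56-fold above Th0. Slc36a3 had at most 7 counts.

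Of the Slc6 genes, 3 reached 10 CPM. Slc6a6, the taurine carrier, had 209 CPM (naive), 111 (Th0), 206 (Th17) and 171 (Treg) and with TMM scaling was called in no comparison. Th0 lay 1.88-fold below naive and 1.85-fold below Th17, and both were called under 2 of the 4 scalings. Slc6a9 (GlyT1), a carrier of glycine, had 2.04 CPM (naive), 11.2 (Th0), 31.3 (Th17) and 19.4 (Treg). No counting intervals overlapped among these, and it was higher than naive by 5.49-fold, 15.3-fold and 9.50-fold in Th0, Th17 and Treg. Its exons share 1429 bases with Ccdc24 on the other strand, which had 0, 3, 9 and 5 counts in naive, Th0, Th17 and Treg. They also share 46 bases with B4galt2, which had 2, 16, 62 and 38. Strand was not stated, so some of these reads may belong to another of these genes. Slc6a8, the creatine carrier, had 1.88 CPM (naive), 4.69 (Th0), 12.6 (Th17) and 10.9 (Treg), and was 6.69-fold (4.31 to 10.9) above naive in Th17 and 5.81-fold (3.70 to 9.51) in Treg. In Th0 it was 2.50-fold above naive (1.46 to 4.36) before the added CPM, and was not called under 3 of 4 scalings. Slc6a12 and Slc6a13, carriers of betaine and GABA, and the serotonin carrier Slc6a4 had between 23 and 35 counts in naive and at most 3 in any culture. Slc6a7, Slc6a11, Slc6a17 and Slc6a19 had at most 6 counts in any library.

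Slc43a3, a carrier of purine bases rather than amino acids, was, with Slc36a4, 1 of the 2 members of at least 10 CPM whose highest level was in Treg. For Slc36a4 the counting intervals of Treg and Th17 overlapped. Slc43a3 had 17.0 CPM (naive), 20.8 (Th0), 38.9 (Th17) and 60.5 (Treg). Treg was 3.56-fold above naive and 2.90-fold above Th0, and Th17 was 2.29-fold above naive. The ratio of Th17 to Treg was 1.56-fold lower (1.39 to 1.75) and did not reach the rule.

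Against naive, 35 of the 60 members had enough counts for Th0, 36 for Th17 and 35 for Treg. Another 24 had too few counts for any of the 6 comparisons. Of the 35, 36 and 35 members compared, 13 for Th0, 8 for Th17 and 9 for Treg had enough counts only in naive. These could be called lower and not higher. The shares of lower calls and the medians below rest in part on them and are a description, not evidence about the families. In Th0, 4 members were higher (11.4%, against 18.5% of all 13995 genes tested) and 17 lower (48.6%, against 27.2%), and their median log2 ratio was -0.96 against -0.13 over all genes tested. In Th17, 7 were higher (19.4%, against 15.5% of all genes) and 12 lower (33.3%, against 17.7%), with a median of -0.05 against -0.01. In Treg, 6 were higher (17.1%, against 14.9%) and 14 lower (40.0%, against 16.9%), with a median of -0.24 against -0.02. The shares of higher calls in Th17 and Treg were near those of all genes. With TMM scaling the same 3 members, Slc7a5, Slc1a4 and Slc6a9, were higher than naive in all 3 cultures, and 3 more, Slc6a8, Slc7a3 and Slc43a3, in Th17 and Treg. For Slc6a8 the missing call in Th0 held under 3 of 4 scalings. These comparisons share the naive library, and the share of all genes with the same shared calls was not worked out.

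Like the members called lower, markers of most other spleen cells had higher levels in the naive library. In all 3 cultures 12 members were lower than naive, among them Slc1a3, Slc7a7, Slc7a8, Slc7a10, Slc36a1, Slc38a5, Slc43a1 and Slc43a2. The share of all genes lower in all 3 cultures was not worked out, so this count has no background beside it. Of these 12, 8 had 0 counts in at least 1 culture and 10 stayed below 10 CPM in both Th17 and Treg. Macrophage markers summed to 3821 CPM in naive and at most 44.8 in a culture, as given above, and the part of other cells in these 12 values was not tested. Among the 20 members that had 10 CPM or more in Th17 or Treg, a filter chosen after the values were seen, the lower calls came to 4 in Th0 (17.2% of all genes passing the same filter were lower), 2 in Th17 (8.49%) and 2 in Treg (7.39%). The higher calls stayed at 4, 7 and 6 of the 20 members, against 21.5%, 16.4% and 15.9% of all genes passing the same filter. That filter takes out genes low in those cultures and so removes lower calls in particular.

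Against Th0 the balance turned. In Th17, 28 members could be compared, 6 of them through Th17 alone and so open only to a higher call, and 11 were higher (39.3%, against 20.1% of all 13324 genes tested) and 1 lower (3.57%, against 12.4%), with a median log2 ratio of 0.84 against 0.09 over all genes tested. In Treg, 26 could be compared, 4 of them through Treg alone and likewise limited, and 9 were higher (34.6%, against 20.2%) and 2 lower (7.69%, against 12.0%), with a median of 0.80 against 0.08. Higher than Th0 in both were 8 members: Slc1a4, Slc6a8, Slc7a1, Slc7a2, Slc7a3, Slc7a6, Slc7a11 and Slc36a4. With TMM scaling Slc1a5, Slc6a9 and Slc7a5 were called in Th17 and not in Treg, and Slc43a3 in Treg and not in Th17, differences that were not tested. Other scalings also called Slc1a5 and Slc7a5 (2 of 4) and Slc6a9 (1 of 4) in Treg, and Slc43a3 (2 of 4) in Th17. No member was called in opposite directions. Of the 8, Slc7a2, Slc7a11 and Slc36a4 were also lower in Th0 than in naive. Both comparisons rest on the same Th0 library, and their shared calls are not independent. The share of all genes higher than Th0 in both was not worked out. Scaling by library totals moved the median log2 ratio of all genes by 0.28 (Th17 over Th0), 0.31 (Treg over Th0) and -0.24 (Th0 over naive), and upper quartile scaling by 0.13, 0.14 and -0.12. Calls over Th0 in Treg were then 15 higher and 0 lower by totals and 13 higher and 0 lower by the upper quartile. The shares of all genes were worked out with TMM scaling only, so these counts have no like share beside them. Across the 4 scalings the members' median was 0.81 to 1.04 in Th17 and 0.74 to 1.06 in Treg.

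**Figure D3:**
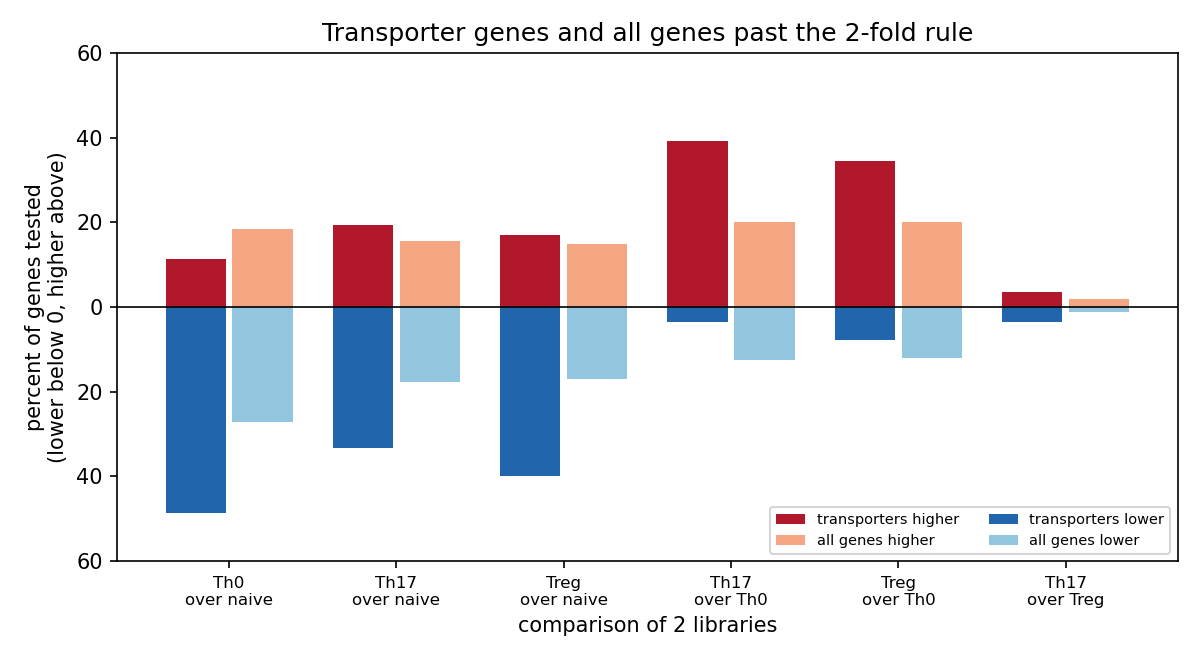
Percent of genes tested that were past the 2-fold rule in each of 6 comparisons, higher above 0 and lower below it, for the transporter genes (dark bars) and for all genes (light bars). Lower calls in Th0 over naive are 48.6% of transporters tested and 27.2% of all genes, and higher calls in Th17 over Th0 39.3% and 20.1%. These shares include 13 transporters tested only through naive and 6 only through Th17, which could be called in that direction alone.

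Th17 and Treg differed little. Of 28 members compared, 2 had enough counts in Th17 alone and so were open only to a higher call. Slc36a1 was higher and Slc43a2 lower in Th17 (3.57% each, against 1.91% and 1.24% of all 13346 genes tested). The median log2 ratio was 0.23 against 0.00 over all genes. Several members whose counting intervals excluded equality fell short of the 2-fold rule. Slc7a5 was 1.79-fold (1.70 to 1.87), Slc7a3 1.85-fold (1.37 to 2.53), Slc1a4 1.66-fold (1.47 to 1.87), Slc6a9 1.62-fold (1.37 to 1.91), Slc3a2 1.51-fold (1.42 to 1.60) and Slc7a1 1.46-fold (1.38 to 1.54) higher in Th17. For Slc7a2, Slc7a7, Slc36a4, Slc38a7, Slc38a9 and Slc38a10 the Th17 and Treg levels lay within 1.08-fold of each other.

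**Figure D4:**
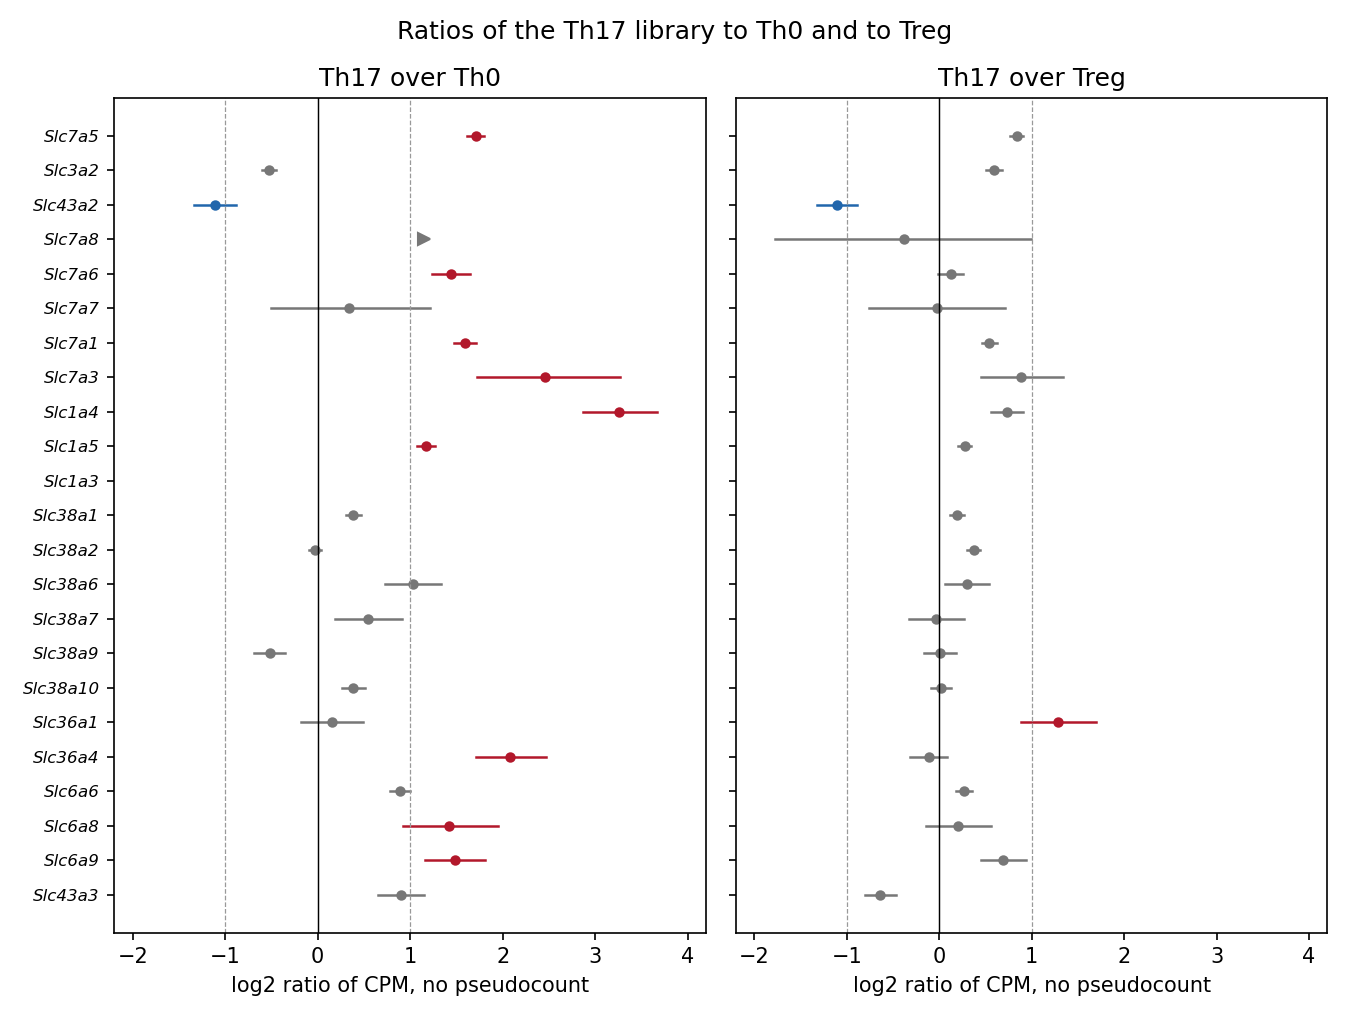
Log2 ratio of CPM, without an added CPM, of Th17 over Th0 (left) and Th17 over Treg (right) for the genes with at least 10 CPM in a library and at least 10 counts in 1 of the 2, with 95% counting intervals. Red and blue mark genes called higher and lower, grey those called neither, dashed lines 2-fold, and the triangle a lower bound (Slc7a8, 0 counts in Th0). In the left panel Slc1a4 has the largest ratio (9.59-fold), and Slc36a1 and Slc43a2 are the coloured points of the right panel.

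Genes of amino acid handling outside these families were read as 3 lists. The amino acid stress response, the ATF4 programme and the synthesis enzymes it is known to induce, had more higher than lower calls in each culture against naive. In Th0, 16 of 26 tested genes were higher and 3 lower (all genes 18.5% and 27.2%), in Th17 21 of 27 and 3 (15.5% and 17.7%), and in Treg 19 of 27 and 3 (14.9% and 16.9%), with medians of 1.61, 1.98 and 1.56 against -0.13, -0.01 and -0.02 over all genes tested. Asns, which makes asparagine, had 4.08 CPM in naive and 78.0, 79.6 and 62.9 in Th0, Th17 and Treg. Pycr1, of proline synthesis, had 1.23 CPM (naive), 10.99 (Th0), 46.2 (Th17) and 27.3 (Treg). Atf3, Cebpb and Ppp1r15a were the 3 lower genes in each culture. Cebpb encodes a transcription factor that is also abundant in myeloid cells, whose markers were higher in naive, and the part of such cells in its value was not tested.

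Against Th0 the calls of this list went both ways, with 7 of 27 genes higher and 2 lower in Th17 (all genes 20.1% and 12.4%) and 5 higher and 4 lower in Treg (20.2% and 12.0%), counts near those of all genes. Vldlr had 9 counts in Th0 and 504 in Th17, Chac1 13 and 257, and Stc2 8 and 172. All 3 were called higher in Th17 than in Th0, with the size of the ratio set by the few counts in Th0, and Asns was within 1.02-fold. Atf4 itself had 231 CPM (naive), 827 (Th0), 565 (Th17) and 353 (Treg), and Ddit3, which encodes the stress factor CHOP, 22.7, 205, 87.8 and 59.0 CPM. Both had their highest level in Th0. By library totals the list had 11 higher and 0 lower in Th17, and 9 and 2 in Treg. By the upper quartile it had 9 and 1, and 7 and 3. With TMM scaling Th17 over Treg had Vldlr (2.38-fold) and Trib3 (2.46-fold) higher and none lower among 27 tested genes (all genes 1.91% and 1.24%).

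Of 40 genes of nutrient sensing by mTORC1, the calls against naive were 8 higher and 5 lower for Th0 (7 and 7 by library totals), 5 and 3 for Th17, and 6 and 4 for Treg. All genes had 18.5% higher and 27.2% lower in Th0, 15.5% and 17.7% in Th17, and 14.9% and 16.9% in Treg, so the higher calls were near the share of all genes. Against Th0, 4 were higher and 8 lower in Th17, and 4 and 4 in Treg, with TMM scaling. All genes with TMM scaling had 20.1% and 12.4%, and 20.2% and 12.0%. By library totals the list had 9 and 5 in Th17, and 8 and 3 in Treg. In Th17 it had 5 and 6 by the upper quartile, and in Treg 3 and 7 by DESeq2 size factors. For all 3 lists the shares of all genes were worked out with TMM scaling only. Between Th17 and Treg none was called with TMM scaling (all genes 1.91% higher and 1.24% lower) and 1 was lower by library totals. With TMM scaling the median log2 ratio was between -0.18 and 0.04 in the 6 comparisons, and its sign changed between scalings for Th0 over naive, Treg over naive, and both comparisons with Th0. Fnip1, which with folliculin acts on the Rag GTPases, had 52.8 CPM (naive), 483 (Th0), 136 (Th17) and 147 (Treg). Rragd, one of those GTPases, had 7.59 CPM (naive), 63.9 (Th0), 16.0 (Th17) and 32.4 (Treg). Gatsl3 (Castor1), the cytosolic arginine sensor, had 11.4 CPM (naive), 30.6 (Th0), 138 (Th17) and 109 (Treg), and Sesn2, a leucine sensor, 28.4, 44.2, 154 and 134 CPM.

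Amino acid carriers of other families had 2 higher and 11 lower calls among 22 tested genes in Th0 over naive. All genes with TMM scaling had 18.5% and 27.2%. By library totals the carriers had 0 and 12. The markers of most other spleen cells given above were also higher in naive, and the part of such cells in these calls was not tested. Slc15a3, a lysosomal carrier of peptides and histidine, had 41.5 CPM (naive), 1.72 (Th0), 30.3 (Th17) and 20.02 (Treg), and was 17.7-fold above Th0 in Th17. Sfxn2, a mitochondrial carrier, had 19.9 CPM (naive), 2.06 (Th0), 12.1 (Th17) and 11.9 (Treg). Against naive 1 of 23 was higher and 6 lower in Th17 (all genes 15.5% and 17.7%), and 2 and 6 in Treg (14.9% and 16.9%). Against Th0, 7 of 23 were higher and 1 lower in Th17, and 6 and 0 in Treg. All genes with TMM scaling had 20.1% and 12.4%, and 20.2% and 12.0%. By library totals the carriers had 8 and 0 in Th17, and 11 and 0 in Treg. None of 22 was called between Th17 and Treg, where all genes had 1.91% higher and 1.24% lower. Without replicates these counts describe the libraries, and none has a test.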

How the data were processed

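RNA-seq values for 4 libraries, 1 per group, were taken from 1 deposited table. The groups came from the cell type in the labels. Per the file headers, the table deposited by the authors holds a whole-number count and an FPKM value for every gene and library. Deposited FPKM fitted count over 1 length per gene and the library total (tolerance 0.1%) in 8988 of 8988 genes that had 50 counts or more everywhere. The submitters' processing notes name Bowtie2, RSEM, GRCm38.p6 and mm10. How annotation, strand and filters were set is not given in the sources used here.

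Counts were scaled with TMM factors from genes with at least 10 counts in 1 library (edgeR 4.0.16, R 4.3.3). The factors were 1.03 (naive), 0.850 (Th0), 1.06 (Th17) and 1.08 (Treg). Calls used a pseudocount of 1 CPM, at least 10 counts in 1 of 2 libraries, a 2-fold limit and 95% intervals, and ran on the whole table in 6 comparisons. Values in all 4 libraries are given for each member with at least 10 CPM in 1 library, for called members under that which the text singles out, and for some of the other listed genes, up to 4 per list and comparison, taken from the largest log2 ratios; not all such genes are named. Atf4, Atf3, Cebpb and Ppp1r15a fall outside this rule and were chosen after their values were seen. Alternatives were library totals, DESeq2 1.42.0 size factors, upper quartile factors, a pseudocount of 0.5 CPM, no count filter and at least 30 counts. Members and lists were chosen with earlier results of these data known. Of the listed symbols Castor1, Castor2 and Bmt2 matched no row, and the first 2 genes were read under their older names Gatsl3 and Gatsl2. All 60 member identifiers were in GENCODE vM21. The values of 1 member, and of 1 list of markers, are not reported here. Near-identical copies were searched with minimap2 (at least 300 nt at 95% identity), and among the members with a called value this found Gm26584, which overlaps Slc7a2 on the other strand and had 0 counts. The calls were tested on simulated data. Tables and figures were made in Python 3.11.15 with scipy 1.17.1, pandas 2.3.3, matplotlib 3.10.9 and numpy 2.4.6.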

Additional observations from a re-analysis of the deposited data

How the results depend on the processing

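No paired analysis was possible because each group had 1 library. Of 78 recomputed counts of called members, 68 stayed within 1.5 times the reported count. Lower calls in Th17 over Th0 (1 reported) were 0 with library totals, 0 with upper quartile factors and 2 with a pseudocount of 0.5 CPM. In Treg over Th0, lower calls (2 reported) were 0 with library totals and 0 with upper quartile factors, and higher calls (9 reported) were 15 with library totals. Lower calls in Treg over naive (14 reported) were 9 with at least 30 counts, which tested fewer members. With only genes of at least 10 CPM in Th17 or Treg, chosen after seeing the data, lower calls against naive were 4 in Th0 (17 reported), 2 in Th17 (12 reported) and 2 in Treg (14 reported). Of 828 recomputed log2 ratios of the 23 members with at least 10 CPM, none that had been called changed sign, 8 lost the call and 22 gained one. Depth limited the low members, since 2 to 3 counts in Th0 set the ratios of Slc7a2 and Slc7a11.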
